A study of Homo sapiens with 2 samples.

Results

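The genes of the nuclear receptors were examined in DNase-seq data from the human osteosarcoma cell lines Saos-2 and U2OS, each an established line without added treatment in the labels and each represented by 1 library. The 45 receptor genes were chosen by name, as a list of RefSeq genes on hg38, out of 20033 protein-coding genes with a position on chromosomes 1 to 22, X and Y; the rule that selects them uses gene names and positions. For every gene, hotspots were counted in a window made of the gene span and 10 kb on each side. A hotspot is a stretch that the authors called as hypersensitive to DNase I, an enzyme that cuts DNA where it is not wrapped into nucleosomes. Nuclei had been digested with DNase I for 3 min at 37 °C. With 1 library in each line there is no replicate error, no p-value is given, and every difference describes these 2 libraries.

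Nuclear receptors are transcription factors that bind DNA and, in most members, a small fat-soluble ligand such as a steroid, thyroid hormone, retinoic acid, vitamin D or a sterol. Many bind as dimers to pairs of a short half-site, often with a retinoid X receptor as the partner, and they recruit corepressors or coactivators depending on the ligand. They are grouped by sequence into the subfamilies NR1 to NR6 and NR0. In bone-forming cells the vitamin D, glucocorticoid, estrogen, thyroid hormone and retinoic acid receptors are well known for their part in growth and mineralization. An open start site shows that the DNA is accessible there and does not measure the RNA.

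The Saos-2 list held 51556 hotspots over 14.2 Mb and the U2OS list 63388 over 17.8 Mb, and read depth is unknown for both. Of 9 osteoblast lineage genes, RUNX2, SPARC and BGLAP had a hotspot at a start in both lines, ALPL in Saos-2 only and COL1A1 in U2OS only, while SP7, COL1A2, SPP1 and IBSP had none at a start. Among genes of other cell types, 5 of 10 had one in both lines, 1 in U2OS only and 4 in neither. By this measure the osteoblast list was not separated from the other list. The measure is loose, because SP7, COL1A1, COL1A2, EPCAM, CDH1, SPI1, CD3E and APOA1 had no listed start. For these genes a hotspot within 1 kb of either gene end was counted. A longer list gives more covered bases by itself, and over all protein-coding windows U2OS had 1.19 times the covered bases of Saos-2.

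Receptor windows held 193 distinct hotspots in Saos-2 and 212 in U2OS. Summed over the 45 windows these covered 50620 bp and 58239 bp, a ratio of U2OS to Saos-2 of 1.15. The median receptor had 647 bp in Saos-2 against 965 in U2OS, against 424 bp and 532 bp for the median protein-coding gene. These medians are not scaled to window length. Per 100 kb of window, receptors had 736 covered bp in Saos-2 and 847 in U2OS. All protein-coding genes had 737 and 877, so receptors were not more densely covered than the background. Of the 193 Saos-2 hotspots, 110 shared at least 1 bp with a U2OS hotspot (57.0%, Wilson 95% interval 49.9 to 63.8%). Of the 212 U2OS hotspots, 108 overlapped a Saos-2 hotspot (50.9%, interval 44.3 to 57.6%). The whole lists had shares of 58.1% and 46.9%, both inside these intervals, so sharing at receptor genes was not distinguishable from that of all hotspots. Only counting error enters these intervals, and hotspots that lie side by side are not independent of each other.

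Start sites were compared first. A gene was counted as having a start-site hotspot where a hotspot lay within 1 kb of any of its RefSeq starts, of which 24 receptors had more than 1. For VDR, NR4A2, NR2F6, HNF4G and NR0B2 the start table had no entry and both gene ends were used. By this measure 18 of 45 receptors (40%) had a start-site hotspot in both lines, against 43.3% of all protein-coding genes. U2OS alone had one at 6 receptors (13.3%, background 10.1%), Saos-2 alone at 1 (2.22%, background 4.79%), and 20 receptors (44.4%, background 41.8%) had none. The receptors were thus close to the background in every class. Counted among the 20 were RORA and NR1H4, each with 1 listed start, far from the 5′ end of the gene span. That end is not among the listed starts, yet hotspots of both lines overlapped at or directly before it in both genes. In NR1H4 the Saos-2 hotspot there was only 54 bp wide. Only the single Saos-2 gene and the 6 U2OS genes are described by name as open at the start in 1 line.

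The genes with a start-site hotspot in both lines were spread over the subfamilies with 8 of 18 in NR1, 5 of 12 in NR2, 3 of 8 in NR3, 1 of 3 in NR4 and the single NR6 gene. Both NR5 genes and the NR0 gene had none. The hotspots of the 2 lines overlapped at the start in 16 of the 18 genes: THRB, RARA, PPARD, NR1D1, NR1D2, NR1H2, VDR, RXRA, RXRB, NR2C1, NR2C2, ESR2, ESRRA, NR3C2, NR4A3 and NR6A1. The overlapping hotspots of NR1D2, RXRB, NR2C2 and NR6A1 also lay within 1 kb of another gene's start. These were LOC124909354, SLC39A7, FGD5-AS1 and LOC107987126, in that order, and the starts cannot be told apart there. In RARB and HNF4G the lines had hotspots at different sites. With windows of 500 bp, 14 genes were counted in both lines, and THRB, RXRA, VDR and NR2C2 no longer were. At THRB the overlapping hotspots lay 931 bp from a start, and the Saos-2 hotspot on a start (4.04) had no overlap.

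**Figure D1:**
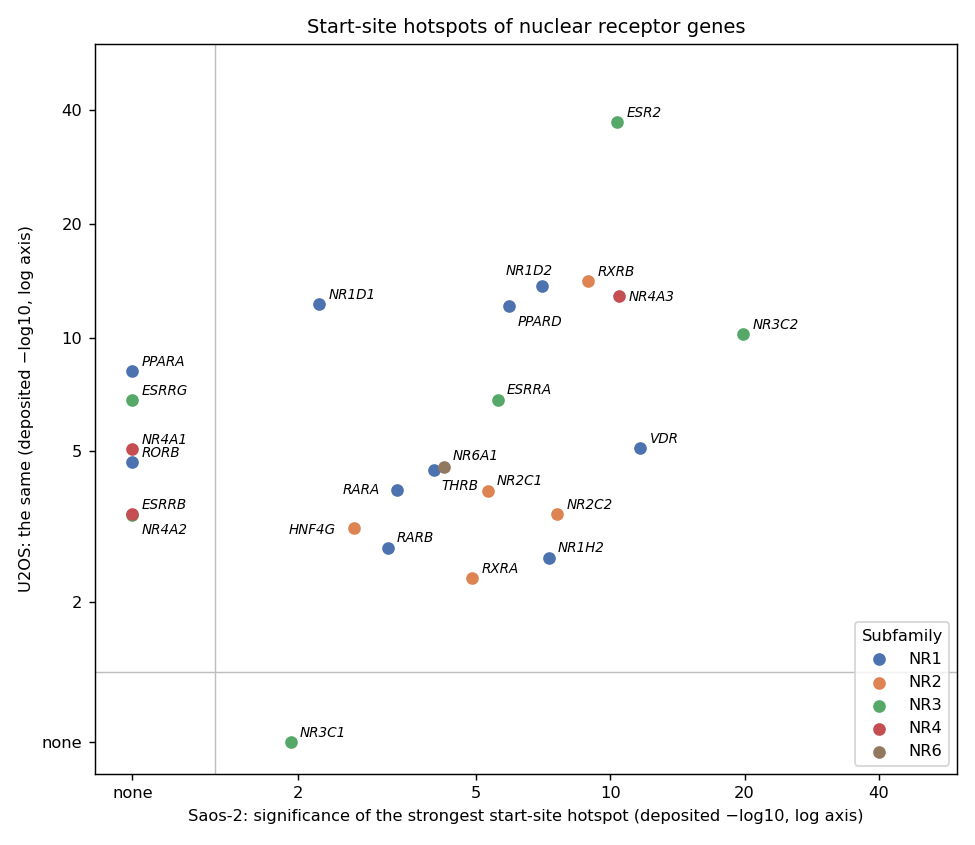
Deposited significance (−log10, log axes) of the strongest start-site hotspot of each receptor gene in Saos-2 (horizontal) and in U2OS (vertical), coloured by subfamily; each point is 1 gene, "none" marks a line without a start-site hotspot, grey lines mark 1.3, the lowest value in the lists, and ESRRB and NR4A2 coincide. ESR2 has the highest U2OS value of 37.2, NR3C2 the highest Saos-2 value of 19.9, and 6 genes lie on the left margin against 1, NR3C1, on the lower margin.

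The 6 genes open at the start in U2OS only were PPARA, RORB, ESRRB, ESRRG, NR4A1 and NR4A2. PPARA encodes a fatty acid receptor that drives fatty acid oxidation, and its U2OS hotspot of 264 bp (chr22:46150262-46150525) had a deposited significance of 8.14 on the −log10 scale. RORB encodes a receptor of the circadian and retinal system and had 2 start-site hotspots in U2OS, of 217 bp and 151 bp, with significances of 4.69 and 2.61, the latter also at a start of RORB-AS1. The estrogen-related receptors ESRRB and ESRRG, which bind no known natural estrogen and are linked to energy metabolism, had significances of 3.40 at 1 of 3 starts and of 6.84 and 2.86 at different starts of ESRRG. Of the immediate-early genes, NR4A1 had hotspots of 3.35 and 5.06 near its 2 starts, and NR4A2 had one of 3.40 at its upper-coordinate end. NR3C1, the glucocorticoid receptor gene, was the Saos-2 case, and its hotspot was only 78 bp wide with a significance of 1.93, near the lowest value of 1.3 in the list.

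NR4A2 had no entry in the start table. Of the other 6 genes, 5 had a hotspot that reached into the 250 bases before a start, and NR4A1 did not. For these 5 genes 1 stretch each is shown, because it is DNA before a start that was called open in only 1 line. Some lie inside longer transcripts of the same gene. Each is the 250 bases before a RefSeq start on GRCh38.p14, written 5′ to 3′ in the direction of the gene, with the bases inside the hotspot in capitals.
PPARA (U2OS hotspot, chr22:46150276-46150525, plus strand): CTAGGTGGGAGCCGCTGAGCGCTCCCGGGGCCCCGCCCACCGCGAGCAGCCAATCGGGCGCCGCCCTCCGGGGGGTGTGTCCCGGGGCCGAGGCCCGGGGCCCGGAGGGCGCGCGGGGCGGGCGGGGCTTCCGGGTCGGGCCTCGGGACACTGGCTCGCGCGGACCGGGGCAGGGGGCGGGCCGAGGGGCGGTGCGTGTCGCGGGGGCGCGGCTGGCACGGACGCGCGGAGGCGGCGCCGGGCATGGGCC
RORB (U2OS hotspot, chr9:74497085-74497334, plus strand): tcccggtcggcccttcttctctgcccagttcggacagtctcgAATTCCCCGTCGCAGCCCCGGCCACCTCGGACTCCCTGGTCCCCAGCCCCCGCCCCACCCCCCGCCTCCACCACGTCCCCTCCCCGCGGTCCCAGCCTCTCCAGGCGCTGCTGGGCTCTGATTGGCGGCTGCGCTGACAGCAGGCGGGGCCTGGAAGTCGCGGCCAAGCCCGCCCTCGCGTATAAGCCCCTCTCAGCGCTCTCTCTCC
ESRRB (U2OS hotspot, chr14:76375887-76376136, plus strand): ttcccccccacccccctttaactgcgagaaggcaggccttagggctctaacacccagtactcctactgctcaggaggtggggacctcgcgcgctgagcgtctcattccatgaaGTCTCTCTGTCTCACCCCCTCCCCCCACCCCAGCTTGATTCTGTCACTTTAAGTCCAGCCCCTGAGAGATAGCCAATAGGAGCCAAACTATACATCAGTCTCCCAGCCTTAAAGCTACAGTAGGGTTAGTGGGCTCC
ESRRG (U2OS hotspot, chr1:216723430-216723679, minus strand): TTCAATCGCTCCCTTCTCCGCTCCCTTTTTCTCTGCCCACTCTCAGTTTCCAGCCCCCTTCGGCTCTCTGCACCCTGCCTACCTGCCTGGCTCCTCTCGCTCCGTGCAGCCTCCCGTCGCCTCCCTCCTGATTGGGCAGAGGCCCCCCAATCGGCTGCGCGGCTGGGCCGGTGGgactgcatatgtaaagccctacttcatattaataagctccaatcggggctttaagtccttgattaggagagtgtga
NR3C1 (Saos-2 hotspot, chr5:143405356-143405605, minus strand): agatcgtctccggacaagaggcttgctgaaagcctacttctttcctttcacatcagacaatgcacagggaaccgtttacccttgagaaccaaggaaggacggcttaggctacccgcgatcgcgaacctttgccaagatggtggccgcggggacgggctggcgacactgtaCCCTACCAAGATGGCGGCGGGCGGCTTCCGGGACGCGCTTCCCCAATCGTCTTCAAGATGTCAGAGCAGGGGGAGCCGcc

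The stretches differed in composition. The PPARA stretch was covered over all 250 bases, had 84.4% G and C and 41 CpG pairs, and held the GC box GGGCGG and CCAAT. The RORB stretch (208 bases covered, 72% G and C, 23 CpG pairs) and the NR3C1 stretch (78 bases covered, 59.6% and 20) held the same pair of motifs. ESRRB had 137 covered bases, 56.4% G and C and only 5 CpG pairs, with CCAAT. The ESRRG stretch, at the hotspot of 2.86, had 174 covered bases, 58.8% G and C and 12 CpG pairs, with CCAAT. Another ESRRG stretch, at the stronger hotspot of 6.84 (chr1:217089825-217090074), is not printed. It had 184 covered bases, 46.4% G and C and 12 CpG pairs, and held none of the motifs searched. The same hotspot also covered 108 of the 250 bases before another ESRRG start, at 217089618, which had 74.4% G and C and 29 CpG pairs.

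RARB encodes the retinoic acid receptor beta and is itself a classical target of retinoic acid receptors, which bind direct repeats. Its 4 RefSeq starts lie far apart, and each line was open at other ones. In Saos-2 a hotspot of 208 bp with a significance of 3.18 (chr3:25428037-25428244) lay directly before the start at 25428263, where U2OS had none. In U2OS hotspots of 1.997 and 2.78 lay at the starts at 24829321 and 25458310, where Saos-2 had none. These values are low in both lists, and the gene therefore counted as open at the start in both lines although no start was shared. The stretches before the starts at 25428263 and 25458310 are shown because they carry this difference; they were picked after the values had been seen.
RARB (Saos-2 hotspot, chr3:25428013-25428262, plus strand): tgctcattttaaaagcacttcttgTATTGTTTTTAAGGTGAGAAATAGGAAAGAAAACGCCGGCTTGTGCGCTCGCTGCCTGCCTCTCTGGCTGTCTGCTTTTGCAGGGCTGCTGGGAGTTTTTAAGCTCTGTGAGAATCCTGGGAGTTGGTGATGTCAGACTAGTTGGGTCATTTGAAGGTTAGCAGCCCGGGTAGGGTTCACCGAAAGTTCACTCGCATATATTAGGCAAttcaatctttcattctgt
RARB (U2OS hotspot, chr3:25458060-25458309, plus strand): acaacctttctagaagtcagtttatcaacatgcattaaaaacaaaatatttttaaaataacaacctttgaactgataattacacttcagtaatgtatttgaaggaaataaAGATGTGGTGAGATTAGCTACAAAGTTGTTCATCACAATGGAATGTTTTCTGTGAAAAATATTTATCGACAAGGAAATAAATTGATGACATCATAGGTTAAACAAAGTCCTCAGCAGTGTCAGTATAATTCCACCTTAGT

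The Saos-2 stretch of RARB contained a direct repeat, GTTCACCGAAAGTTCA, whose first base lies 52 bases before the start, inside the hotspot. The pattern searched was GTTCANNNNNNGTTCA on both strands, added after the sequence had been seen. It was found at 1 of 95 receptor starts, the RARB start already seen, and at 8 of 22198 protein-coding starts (0.036%), which include that start. The RARB match was therefore fixed in advance, and these counts do not test whether receptors differ from other genes. The U2OS stretch had 29.6% G and C and 1 CpG pair and lacked the pattern. A match describes the letters and shows no binding.

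Over all receptor starts in the table, 34 of 95 had a hotspot within 1 kb in at least 1 line (35.8%), against 55.9% of 22198 protein-coding starts. Receptors with many listed starts weigh more in this share. Starts with a hotspot had a median of 20 CpG pairs in the 250 bases before the start, and those without had 8; over all protein-coding starts the medians were 21 and 6. The GC box GGGCGG was present at 64.7% of receptor starts with a hotspot and 39.3% of those without, close to the 66.8% and 37.2% of all protein-coding starts. The half-site AGGTCA of many nuclear receptors was not found at the 34 receptor starts with a hotspot and present at 14 of the 61 without (23%), which belonged to 10 genes; over all protein-coding starts it was present at 8.12% with and 13.5% without a hotspot. Of the other motifs searched on both strands, CCAAT was present at 34.7% of receptor starts (32.7% of all starts), AGAACA at 10.5% (9.84%), TATAAA at 7.37% (9.01%), CACGTG at 6.32% (7.37%), TGACTCA at 4.21% (3.45%) and TGACGTCA at 2.11% (2.01%). Starts of 1 gene can share bases, so these shares are descriptions.

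Coverage of whole gene windows was compared next. A gene was called higher in a line where its covered bases were at least 2 times those of the other line and at least 200 bp. U2OS was higher at 15 of 45 receptors (33.3%), against 20.8% of all protein-coding genes, and Saos-2 was higher at 5 (11.1%), against 9.07%. A gene with too few covered bases cannot be called. No hotspot in either line was found at 6.67% of receptors, against 14.4% of all protein-coding genes. The shares called are therefore not those of genes equally open to a call, and show no excess at receptors by themselves. Of the 15, THRA and NR1D1 share hotspots. The same 15 and 5 genes were called with both lists limited to 51556 hotspots. With covered bases divided by the total of each line, ESR2, NR1D2 and NR4A1 were no longer called and 12 were higher in U2OS. NR6A1 was gained for Saos-2, which made 6. The background shares were not recomputed for this setting. More covered bases in U2OS, by any amount, were found at 25 receptors (55.6%, background 52.7%) and in Saos-2 at 17 (37.8%, background 32.8%). The 25 other receptors were called in neither direction, and of these NR3C1 came nearest to the rule for U2OS with a fold of 1.81 and NR6A1 nearest for Saos-2 with 1.74.

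**Figure D2:**
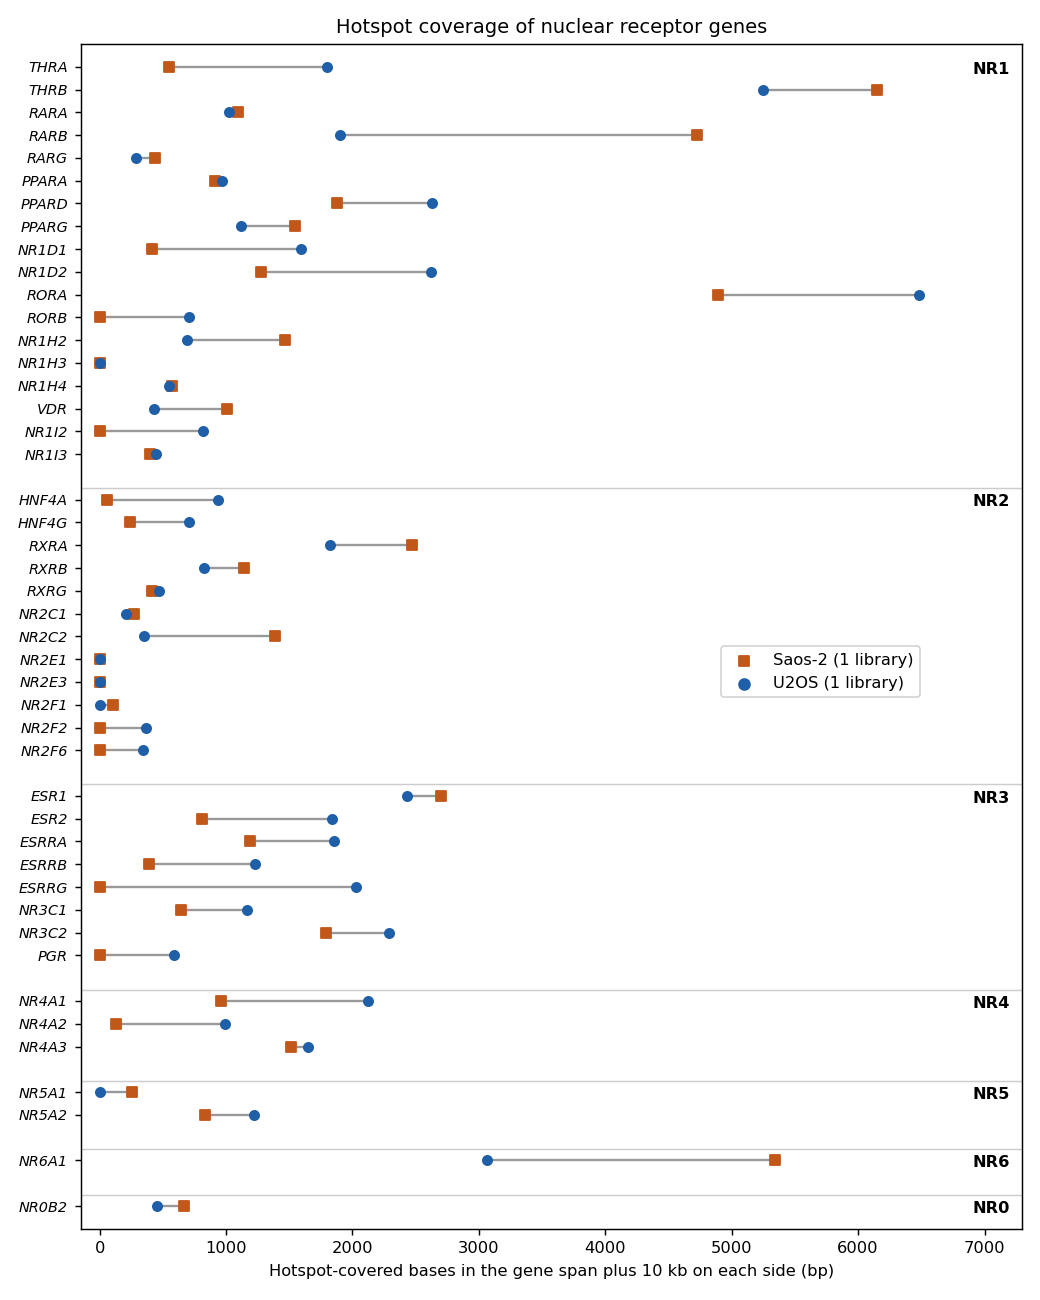
Hotspot-covered bases (bp) in the gene span plus 10 kb on each side for each receptor gene, by subfamily, with 1 library per line (square Saos-2, circle U2OS) and a grey line joining them. The long lines to the right in U2OS include ESRRG with 0 and 2031 bp, and those to the right in Saos-2 include RARB with 4723 and 1900 bp.

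In the NR1 subfamily of 18 genes, U2OS was higher at 5 (background 20.8%) and Saos-2 at 3 (background 9.07%). The 5 include THRA and NR1D1, whose windows share hotspots. The summed coverage was 27314 bp in Saos-2 against 29293 in U2OS. The 4 clock receptor genes had 24 Saos-2 and 45 U2OS hotspots, and each had more covered bases in U2OS, as did 52.7% of all protein-coding genes; 3 of the 4 were called. NR1D1, a repressor of clock genes, had 415 bp in Saos-2 against 1590 in U2OS. Its start hotspot spanned 178 bp in the Saos-2 list but 509 bp in the U2OS list, where another of 285 bp lay before it. NR1D2, its paralogue, had 1274 bp and 2619 bp, with 1 start-site hotspot in Saos-2 and 5 in U2OS. Several of these U2OS hotspots lay less than 150 bp apart, so 5 is a count of intervals and not of separate sites. Some, like the Saos-2 one, also lay at a start of LOC124909354. NR1D2 was not called once covered bases were divided by the total of the line. RORB had no hotspot in Saos-2 and 4 in U2OS with 704 bp. RORA, which activates through the elements that NR1D1 represses, had 4892 bp and 6480 bp, 1.32-fold more in U2OS and below the rule.

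THRA, a thyroid hormone receptor gene, overlaps NR1D1 and its window shares hotspots with it. It had 546 bp in Saos-2 against 1796 in U2OS, but none of these hotspots lay at its own start. At starts of NR1D1 or MED24 lay 2 of 3 in Saos-2 and 3 of 5 in U2OS. Inside the THRA span lay 0 Saos-2 hotspots and 1 U2OS hotspot, of 148 bp (2.30). In Saos-2 2 hotspots and in U2OS 3 were counted for both THRA and NR1D1. The calls of THRA and NR1D1 therefore rest in part on the same hotspots. THRB had the most covered bases of any receptor summed over both lines, 6149 bp in Saos-2 against 5246 in U2OS, closely followed by RORA. The strongest hotspot of all receptor windows lay inside THRB at chr3:24156429-24156891, with a significance of 44.8 in U2OS, and overlapped the strongest THRB hotspot of Saos-2 (22.5).

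RARB had the most covered bases of the 5 genes higher in Saos-2, with 17 hotspots and 4723 bp in Saos-2 and 9 hotspots and 1900 bp in U2OS, 2.49-fold. Its strongest Saos-2 hotspot, 17.6 at chr3:25258414-25258780, had no overlap in U2OS. All 3 retinoic acid receptor genes had more covered bases in Saos-2 (background 32.8%), though RARA (1091 and 1020 bp) and RARG (441 and 290 bp) were not called. VDR, the vitamin D receptor gene, had 1006 bp in Saos-2 against 428 in U2OS, a 2.35-fold difference. It had 3 hotspots at its upper-coordinate end in Saos-2, the strongest at 11.7, and 1 of 5.09 in U2OS that overlapped it. NR1H2, a receptor for oxysterols, had 1464 bp and 694 bp, but 3 of its 4 Saos-2 hotspots and 1 of 2 in U2OS lay at starts of NAPSA or POLD1, and the gene was not called without them.

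Of the receptors for foreign compounds and bile acids, NR1I2 had no hotspot in Saos-2 and 2 in U2OS with 814 bp. The U2OS hotspot inside NR1I2 at chr3:119794994-119795554 was 561 bp wide and had a significance of 36.8, the highest of any receptor hotspot without overlap in the other line. It lay 12.3 kb from the nearest RefSeq start. NR1I3 had 400 and 449 bp, in each line from 1 hotspot outside the gene span, at the start of TOMM40L. NR1H4 had 573 and 548 bp. NR1H3 had no hotspot in either line. Among the fatty acid receptors, PPARD (1880 and 2632 bp), PPARG (1546 and 1118 bp) and PPARA (914 and 965 bp) were not called. PPARD had 2 strong U2OS hotspots inside the gene without overlap, at 22.96 and 29.5. PPARG, the regulator of fat cell formation, had no hotspot at any of its 6 starts in either line, and its strongest hotspots in both lines overlapped each other inside the gene (13.3 and 10.4).

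In the NR2 subfamily of 12 genes the summed coverage was nearly equal, at 6083 bp in Saos-2 against 6032 in U2OS. U2OS was higher at 4 genes (background 20.8%) and Saos-2 at 1 (background 9.07%). The hepatocyte nuclear factors HNF4A and HNF4G, known from liver and gut, were both on the U2OS side. HNF4A had 57 bp in 1 hotspot of 1.49 in Saos-2 and 935 bp in 5 hotspots in U2OS, the strongest at 10.1, and no hotspot at either start. The Saos-2 value is a single short hotspot near the threshold, so the fold of 16.4 is poorly determined. HNF4G had 240 bp and 709 bp. NR2F2 and NR2F6 of the COUP-TF group, which are orphan receptors of development, had none in Saos-2 and 363 bp and 342 bp in U2OS. Of the 2 NR2F2 hotspots, 1 (105 bp, 1.57) lay at the start of NR2F2-AS1, and the other had 258 bp. The NR2F6 hotspot lay at the start of OCEL1 and the call of NR2F6 was lost without it. NR2F1 had only a Saos-2 hotspot of 106 bp, at the start of NR2F1-AS1.

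The retinoid X receptors, the dimer partners of much of the NR1 subfamily, were called in neither direction: RXRA had 2472 and 1825 bp in Saos-2 and U2OS, RXRB 1140 and 827 bp, and RXRG 411 and 469 bp. NR2C2, which encodes the testicular receptor TR4, was the NR2 gene higher in Saos-2, with 1388 bp and 354 bp, 3.92-fold. It shared a start-site hotspot in both lines, and a pair of adjoining Saos-2 hotspots inside the gene (8.47 and 7.06) had no overlap. Its relative NR2C1 had 269 and 208 bp. NR2E1, of neural stem cells, and NR2E3, of photoreceptors, had no hotspot in either line.

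The NR3 subfamily of steroid and estrogen-related receptors had 28 hotspots over 7527 bp in Saos-2 and 44 over 13415 bp in U2OS, a ratio of 1.78 against 1.19 for all protein-coding genes. U2OS had more covered bases at 7 of the 8 genes, against 52.7% of all protein-coding genes. It was higher by the rule at 4 (background 20.8%) and Saos-2 at 0 (background 9.07%), and 1 of the 4, ESR2, was not called once covered bases were divided by the total of the line. ESRRG had 0 Saos-2 and 8 U2OS hotspots over 2031 bp, in a gene span of 634 kb. The strongest were inside the gene, at 12.4 and 11.7. ESRRB had 392 bp in 1 Saos-2 hotspot and 1229 bp in 4 U2OS hotspots, 3.14-fold. A U2OS hotspot of 31.7 lay 2.28 kb from its most upstream start, with no Saos-2 hotspot there, while the Saos-2 hotspot (12.0) overlapped a U2OS one (8.90). ESRRA had a start-site hotspot in both lines and 1190 and 1850 bp. Of its 4 hotspots in each line, 2 in Saos-2 and 1 in U2OS lay at starts of PRDX5 and TRMT112. That U2OS hotspot, of 837 bp, was the strongest in the window (23.4).

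ESR2, the gene of estrogen receptor beta, had 809 bp in Saos-2 against 1834 in U2OS, 2.27-fold. Its start-site hotspot overlapped in the lines but spanned 378 bp in Saos-2 (significance 10.4) and 864 bp in U2OS (37.2), the widest receptor hotspot of either line. ESR1, the gene of estrogen receptor alpha, had no hotspot at any of its 6 starts. It nevertheless had 11 hotspots in Saos-2 (2698 bp) and 9 in U2OS (2428 bp), of which 7 in each line overlapped. PGR, the progesterone receptor gene, had none in Saos-2 and 3 in U2OS over 586 bp, none at its starts. NR3C1 had 647 and 1169 bp with 2 of 4 hotspots in each line overlapping. NR3C2, the mineralocorticoid receptor gene, had 1791 and 2288 bp and an overlapping start-site hotspot of 19.9 in Saos-2 and 10.2 in U2OS.

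**Figure D3:**
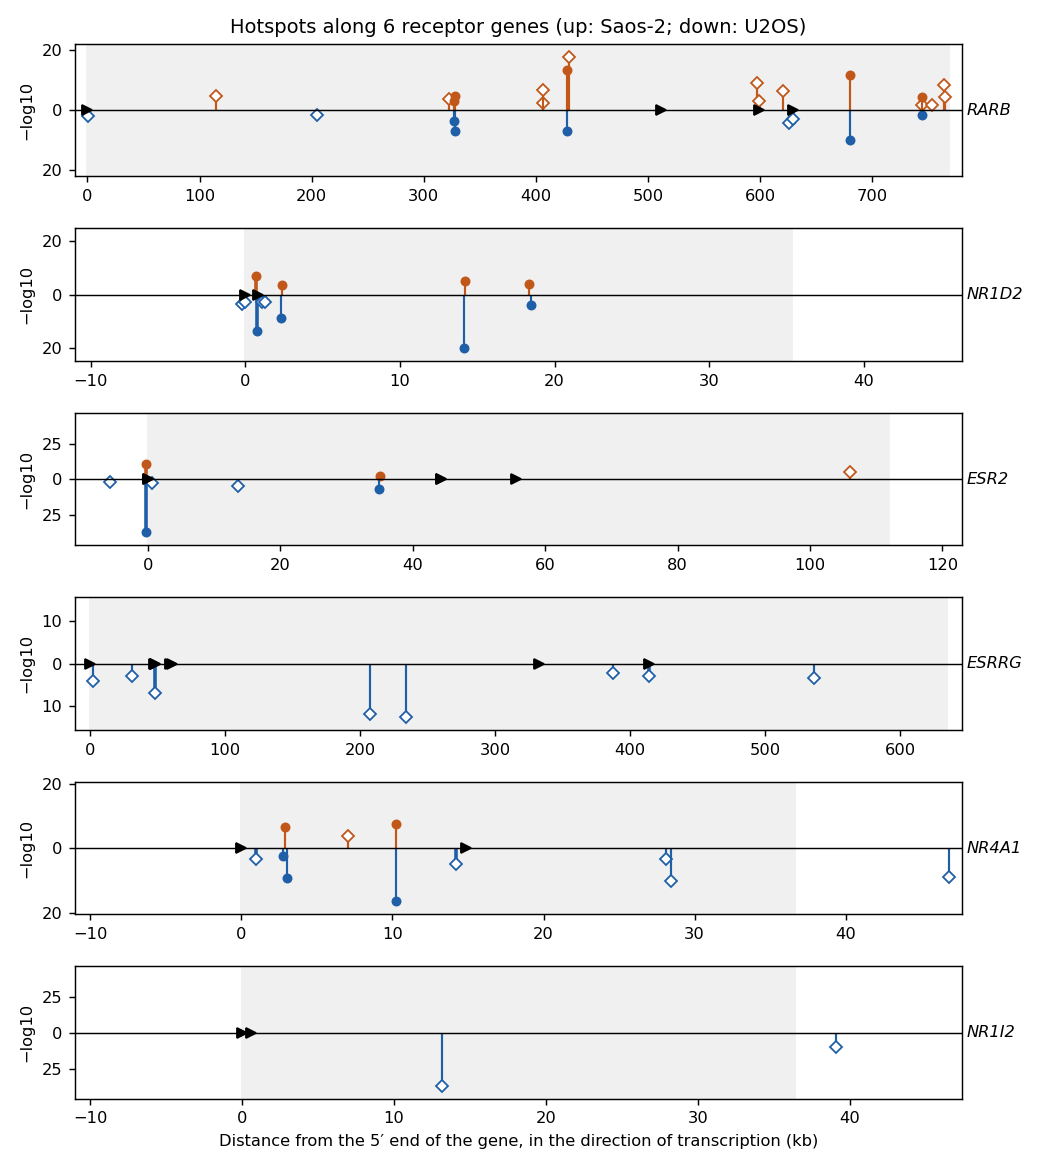
Hotspots along RARB, NR1D2, ESR2, ESRRG, NR4A1 and NR1I2 by distance (kb) from the 5′ end of the gene, with height giving the deposited significance (−log10; up Saos-2, down U2OS), filled circles for hotspots that overlap the other line, open diamonds for those that do not, grey for the gene span and black triangles for RefSeq starts. ESRRG and NR1I2 have U2OS hotspots only, and RARB has 17 Saos-2 and 9 U2OS hotspots.

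The NR4A receptors are immediate-early genes that respond to many stimuli and act without a known ligand. All 3 had more covered bases in U2OS, as did 52.7% of all protein-coding genes. They had 8 hotspots over 2599 bp in Saos-2 and 17 over 4758 bp in U2OS. NR4A1 had 957 and 2121 bp, 2.22-fold, and was not called once covered bases were divided by the total of the line. NR4A2 had 129 bp in a single Saos-2 hotspot of 1.75 and 992 bp in 4 U2OS hotspots. The Saos-2 hotspot and 2 of the U2OS ones lay at the start of the neighbour FLJ46875. NR4A3 was not called, with 1513 and 1645 bp, and all 4 of its Saos-2 hotspots were overlapped.

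The remaining subfamilies are small. NR5A1, a regulator of steroid-producing tissues, had a single Saos-2 hotspot, 253 bp wide (significance 7.92), and none in U2OS. NR5A2 had 835 and 1219 bp. NR6A1, a receptor of germ cells and early embryos, had 20 hotspots over 5340 bp in Saos-2 and 10 over 3067 bp in U2OS, 1.74-fold and below the rule; 9 and 8 of them overlapped. NR0B2, a receptor without a DNA-binding domain, had 669 and 455 bp, and its hotspots included one at the start of NUDC in each line.

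**Figure D4:**
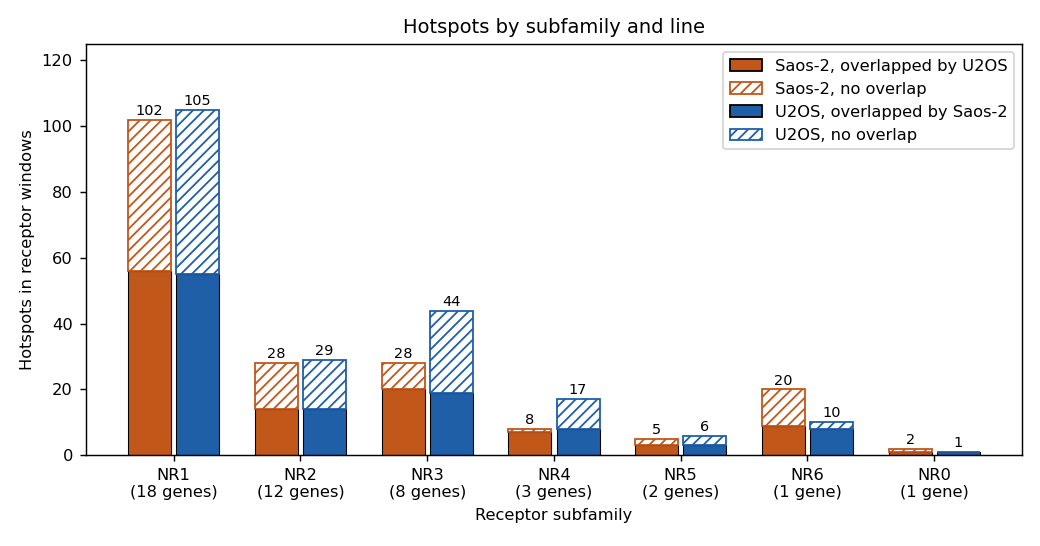
Number of distinct hotspots in the windows of each receptor subfamily in Saos-2 and U2OS, divided into those that overlap the other line (filled) and those that do not (hatched); the number above a bar is its total. NR3 has 28 Saos-2 and 44 U2OS hotspots, and NR6 has 20 and 10.

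Sharing by subfamily rests on small counts, and differences between subfamilies were not tested. Over the whole lists 58.1% of Saos-2 hotspots and 46.9% of U2OS hotspots were overlapped. In NR3, 20 of 28 Saos-2 hotspots were overlapped (71.4%, Wilson 95% interval 52.9 to 84.7%) and 19 of 44 U2OS hotspots (43.2%, interval 29.7 to 57.8%). In NR1 the shares were 54.9% of 102 Saos-2 and 52.4% of 105 U2OS hotspots. In NR2 they were 14 of 28 and 14 of 29, in NR4 7 of 8 (87.5%, 52.9 to 97.8%) and 8 of 17 (47.1%, 26.2 to 69.0%), and in NR5 3 of 5 and 3 of 6. NR6A1 had 9 of 20 in Saos-2 (45%, 25.8 to 65.8%) and 8 of 10 in U2OS (80%, 49.0 to 94.3%), and NR0B2 1 of 2 and 1 of 1. The interval held the whole-list share in every subfamily in Saos-2, and in U2OS in all but NR6, with its 10 hotspots. In U2OS, 18 of 38 hotspots at receptor starts overlapped a Saos-2 hotspot (47.4%, 32.5 to 62.7%) and 51.7% of the 174 others did. In Saos-2 these shares were 64.3% of 28 (45.8 to 79.3%) and 55.8% of 165. The intervals of start and other hotspots overlapped in both lines.

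Receptors act through coregulators, of which 18 genes were measured. U2OS was higher by the rule at 2 of the 18 (background 20.8%) and Saos-2 at 3 (background 9.07%), with 27403 bp in Saos-2 against 25983 in U2OS. The coactivator PPARGC1A, a partner of PPAR and estrogen-related receptors in energy metabolism, had 681 bp in Saos-2 against 2341 in U2OS, and the corepressor LCOR had 327 and 677 bp. NCOA1 (2088 and 923 bp), CARM1 (1800 and 889 bp) and TBL1XR1 (1321 and 406 bp) were higher in Saos-2. A start-site hotspot was present in both lines at 11 of the 18, against 18 of the 45 receptors and 43.3% of all protein-coding genes.

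A further list held 25 genes of ligand metabolism and receptor targets. U2OS was higher at 7 (background 20.8%) and Saos-2 at 2 (background 9.07%), and 19 of the 25 had more covered bases in U2OS (background 52.7%). Of the 13 genes of ligand metabolism, 12 had no start-site hotspot in either line, against 41.8% of all protein-coding genes. CYP24A1, which degrades vitamin D, had 509 bp in Saos-2 against 2086 in U2OS. The enzymes of retinoic acid synthesis ALDH1A2 (0 and 685 bp) and ALDH1A3 (301 and 645 bp), DIO3, which inactivates thyroid hormone (0 and 244 bp), and HSD11B1, which regenerates active glucocorticoid (0 and 420 bp), were higher in U2OS. ALDH1A1, of the same class as ALDH1A2, had 186 bp in Saos-2 and 0 in U2OS and was not called. Of the enzymes that degrade retinoic acid, CYP26A1 (299 and 85 bp) was higher in Saos-2, and CYP26B1 (349 and 577 bp) was not called. Among targets, the clock gene BMAL1 (795 and 1959 bp) and KLF9 (684 and 2855 bp) were higher in U2OS and PER1 (1360 and 652 bp) in Saos-2.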

How the data were processed

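DNase-seq was available for 1 library of Saos-2 and 1 of U2OS. Per the labels' protocols, adapters were ligated and libraries amplified for 8 to 10 PCR cycles. Trimmomatic 0.38, BWA 0.7.15 and hg38 are named, without a role, in the submitters' processing notes; the hotspot caller, read filters and depth are not given in the sources used here. The deposited files list hotspots called by the authors for each library, at a false discovery rate of 0.05 per the file names. Each hotspot carries a deposited −log10 significance, which runs from 1.30 to 100; this meaning was read from the values. The deposited score equals 10 times that value after rounding and was not used. A deeper library gives more hotspots and higher significance, so significance is given side by side and not tested.

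Positions of 45 receptor genes and of all protein-coding genes came from RefSeq on GRCh38.p14, as did 95 receptor starts and sequences for 40 receptors. Covered bases, hotspots within 1 kb of starts and overlaps of at least 1 bp were computed with Python 3.11.15, numpy 2.4.6 and pandas 2.3.3, and Wilson intervals with statsmodels 0.14.6. The code was checked on simulated intervals. For 4192 protein-coding genes both ends stood in for the start. Motifs were searched in the 250 bases before each start, in place of the longer window first planned, which leaves out the first transcribed bases of that start; where a gene has several starts, these bases can lie inside another of its transcripts. Alternatives changed the flank, the lists, the fold, the start window and the overlap. All 45 members are accounted for; detail was given to genes past the 2-fold rule, those with a start-site hotspot in 1 line, those without hotspots and those with the most covered bases. The members and lists were chosen with earlier results of these data known.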

Additional observations from a re-analysis of the deposited data

How the results depend on the processing

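No paired analysis was possible because the series holds a single library of each line, and no replicate could be left out. Of 55 values recomputed, 42 stayed within 1.5 times the reported count or inside the reported interval, and 13 did not. The count of 15 receptors higher in U2OS ranged from 11 (gene span alone, or at least 3-fold) to 17 (at least 1.5-fold). That of 5 higher in Saos-2 rose to 8 in the top 50% of each list and fell to 2 with at least 3-fold; with 50 kb flanks it was again 5, but RARB was the only gene shared with the reported 5. On the gene span alone ESRRB, NR1D2, NR2F6, NR4A2, THRA, NR1H2 and VDR were no longer called, and with 50 kb flanks ESR2, NR1D2, NR1I2 and NR2F6 were no longer called for U2OS. Receptors with a start-site hotspot in both lines fell from 18 to 8 in the top 50% and to 14 with 500 bp windows. The Saos-2-only count of 1 was 2 with lists of equal length, 5 in the top 50% and 0 at a −log10 value of at least 2. It was 4 with 500 bp windows, which added RXRA, THRB and VDR, and 3 with 2.5 kb windows. The U2OS-only count stayed between 5 and 7, but its members changed: the top 50% lost ESRRB and NR4A2 and gained NR1D1, 500 bp windows lost NR4A1 and gained NR2C2, and 2.5 kb windows gained NR2F2. The overlapped share of Saos-2 hotspots was 47.7% with lists of equal length, 43.9% in the top 50% and 39.4% when 50% of both hotspots had to overlap; for U2OS hotspots the last 2 settings gave 42.9% and 35.8%. The cause of these shifts was not tested. Leaving out hotspots at starts of other genes, and counting only genes with annotated starts, were chosen after seeing the data. Depth is unknown and limits every count.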
